A study of Mus musculus with 29 samples.

Results

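NANOG, OCT4, PRR3 and THAP4 are the 4 wild-type factors that gave the fewest anti-HA ChIP-seq peaks when expressed in NIH-3T3 mouse fibroblasts. They were chosen by the small number of peaks in their lists, so that number is given only as a description. NANOG-HA had 396 peaks, OCT4-HA had 95 in replicate 1 and 52 in replicate 2, PRR3-HA had 62 and THAP4-HA had 58. Together these 5 lists hold 663 of the 304922 peaks of the series. Just outside this choice, BRACHYURY-HA had 720 peaks, while the mutants FOXA1_RR-HA and FOXA1_SW-HA, which are no wild-type factors, had 151 and 147.

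Every cell line carried rtTA3G and a lentiviral, doxycycline-inducible transgene for 1 factor with an HA tag at its C-terminus, and received 500 ng/ml doxycycline overnight, so the peaks report an overexpressed factor. The line of OCT4-HA with SOX2-YPET expressed a fusion of SOX2 and YPet as well. Chromatin was fixed with 1% formaldehyde. The other 20 constructs, named below by their labels, include the FOXA1 mutants and OCT4-HA co-expressed with SOX2-YPET. Only OCT4-HA has duplicates among the 4 factors, so NANOG-HA, PRR3-HA and THAP4-HA have no replicate error. The peak lists give positions only, with no score or read number, and the depth behind each list is unknown. They also hold no expression values, so the cell line was not checked against marker genes.

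NANOG, a homeodomain protein, and OCT4, a POU-domain protein encoded by Pou5f1, are known for keeping embryonic stem cells pluripotent, where they bind many enhancers together with SOX2. Fibroblasts normally express neither. THAP4 carries a THAP domain, a zinc-coordinating DNA-binding fold, and a heme-binding nitrobindin domain. PRR3 is a proline-rich protein with a CCCH zinc finger, a fold better known for binding RNA.

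The THAP4-HA list held a short sequence that was rare in every other list. Peaks of the 5 lists that touched were merged into 480 sites, of which 21 had a THAP4-HA peak and none of the other 3 factors. In the central 300 bp of 9 of these 21 sites (42.9%, 95% exact interval 22 to 66%) stood the 7-base sequence CCGTACA, read on either strand. It was picked from the data, as the 7-base word most over its share in promoters among the 60 most common ones of these sites, so its share here carries no test. The 9 stretches below are on GRCm38 and run 5′ to 3′ on the strand of the word, which is in capitals. They are shown because all of them lay within 1000 bp of the start of a protein-coding gene, named first.

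Thap4 and Atg4b (chr1:93754762-93754790, minus strand): ccgccatctttCCGTACAgacagccaccc
Zfp672 and Sh3bp5l (chr11:58330583-58330611, minus strand): acgttcagggtCCGTACAagatggcgcta
Cenpo and Ptrhd1 (chr12:4233969-4233997, plus strand): ttgtgcttccgCCGTACAcgaacatggtg
Daxx (chr17:33909427-33909455, plus strand): cggcctgggtcCCGTACAgcaatatggcc
Ndc80, at Mettl4-ps1 (chr17:71527060-71527088, plus strand): ggaatcaagttCCGTACAgcaatatggct
Mettl4 (chr17:94749854-94749882, minus strand): ggagtcgagttCCGTACAgcaatatggcc
Knstrn (chr2:118814081-118814109, plus strand): gctcgaaccttCCGTACAgcatggcggct
Zfp37 (chr4:62208537-62208565, plus strand): catggaccccgCCGTACAacggaggcgcg
Irgq (chr7:24530568-24530596, plus strand): gtccccctttgCCGTACAaaccctgcacg

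These 9 sites were also all of the THAP4-only sites at promoters, and the word stood in 0 of the 12 other THAP4-only sites (upper exact limit 26.5%). The genes include Daxx, a chaperone of histone H3.3, Cenpo, Knstrn and Ndc80, whose products work at the centromere and kinetochore, Mettl4, a methyltransferase, and Atg4b, a protease of autophagy. Thap4 encodes the expressed factor itself: the peak of 411 bp lay on the shared start of Thap4 and Atg4b. In 6 of the 9 stretches the letters ATGG followed within 11 bases of the word, and in 3 of them as ATATGGC. The Mettl4 and Mettl4-ps1 stretches, from a gene and its pseudogene on the same chromosome, differed at 3 of 29 bases and so are not independent.

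The word was rare outside this list. It stood in 9 of 58 THAP4-HA peaks (15.5%, 7.35 to 27.4%), 1 of 396 NANOG-HA peaks (0.253%) and 0 of the OCT4-HA and PRR3-HA peaks. Among the 23 lists of other constructs the share ran from 0 in both FOXA1 mutants to 1.29% in RHOX11-HA. It was held by 0 of the 36 sites that THAP4-HA shared with another of the 4 factors. Of 39 windows 5 kb to either side of the THAP4-only sites that touched no peak, 0 held it (upper exact limit 9.03%). Of 32851 promoter sequences of 300 bases from RefSeq on GRCm38.p6, 230 held it (0.700%), and a THAP4-HA peak touched 10 of those 230 (4.35%), which belong to 7 genes. Most promoters with the word thus had no peak in this list. Over all 32851 promoter sequences, a THAP4-HA peak touched 19, and 10 of these (52.6%) held the word. Since the word was picked from peaks of this list, these shares carry no test.

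**Figure D1:**
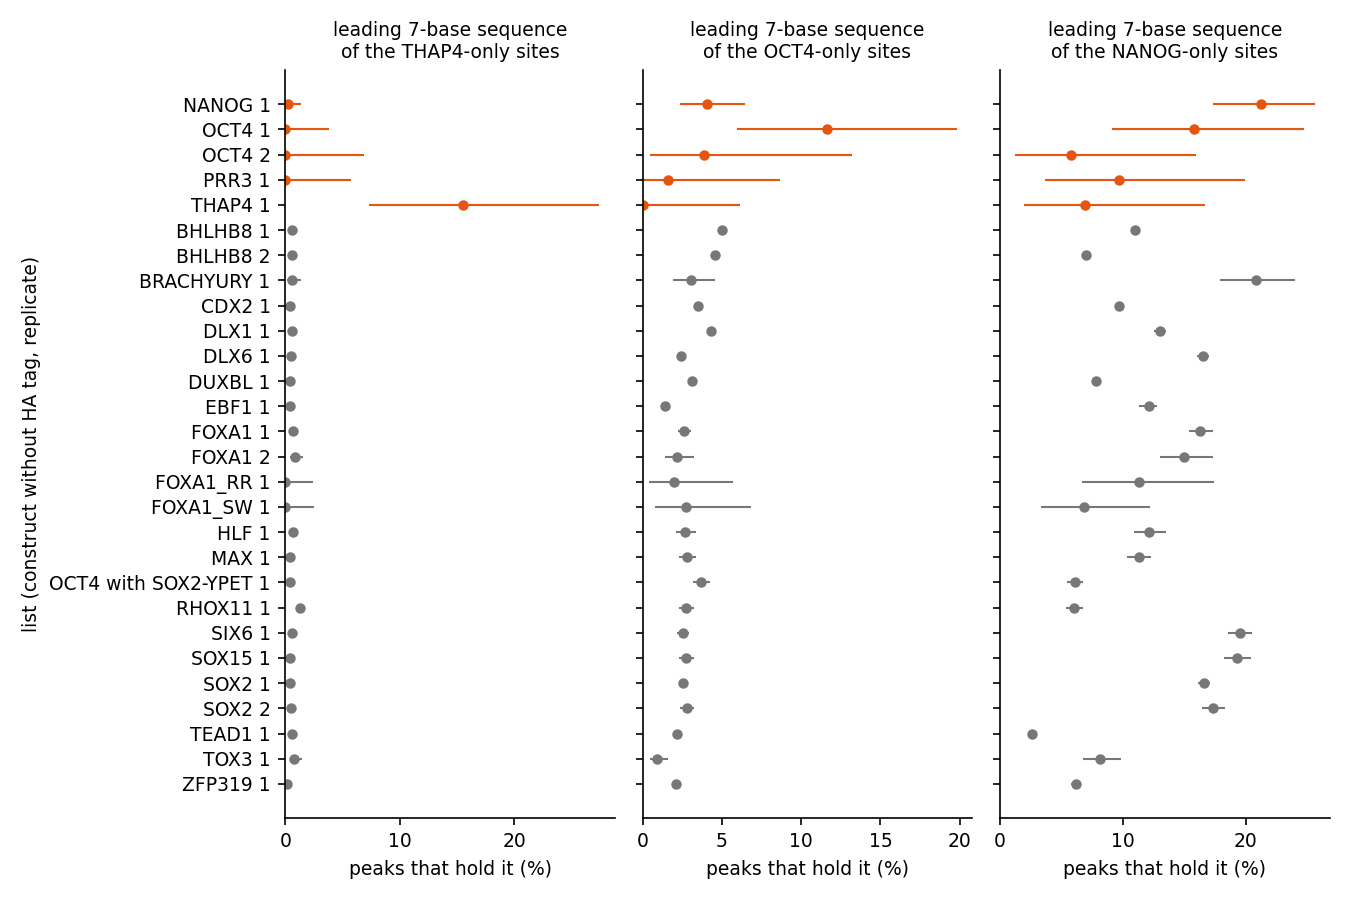
Share of the peaks in each of the 28 lists (vertical axis) whose central 300 bp hold the leading 7-base sequence of the THAP4-only, OCT4-only and NANOG-only sites (horizontal axes, percent), with 95% exact intervals for counting error. Orange marks the 5 lists of the 4 factors. The THAP4-HA list stands at 15.5% in the left panel, where no other list passes 1.29%, whereas in the right panel BRACHYURY-HA, SIX6-HA and SOX15-HA come near the 21.2% of NANOG-HA.

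OCT4-HA alone among the 4 had 48 sites, of which 40 came from replicate 1 only, 6 from replicate 2 only and 2 from both. The leading word by the same rule was CATATGC, in 11 of the 48 (22.9%, 12 to 37.3%), against 1.74% of promoters, 2 of 82 neighbouring windows (2.44%) and 1 of the 69 OCT4-HA sites shared with another of the 4 (1.45%). It was held by 10 of the 40 sites of replicate 1, by 0 of the 6 of replicate 2 and by 1 of the 2 in both, so its share rests on replicate 1. Over whole lists it stood in 11.6% of the peaks of replicate 1 (5.92 to 19.8%) and 3.85% of those of replicate 2 (0.469 to 13.2%). Other constructs ranged up to 5.01% in BHLHB8-HA. CATATGC holds CATATG, an E-box, which is the kind of sequence that basic helix-loop-helix proteins such as BHLHB8 bind. The next words by the same rule were ATATGCA, in 14 of the 48 sites (29.2%), and ATGCATA, in 11 (22.9%). They stood in 2.65% and 2.07% of promoters, and neither holds CATATG on either strand. Which kind of protein these words reflect was not tested. The 7 word-bearing sites in introns of genes were in Plcd3, Rmi2, Celf2, Blcap, Arhgap24, Crlf2 and Fgfr2, and those in Blcap, Crlf2 and Fgfr2 lay within 1000 bp of the start of Blcap, Crlf2 and Tacc2. They are printed to show what flanks the word, which is in capitals.

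Plcd3 (chr11:103094047-103094075, plus strand): aaggatgtatgCATATGCtaattagccag
Rmi2 (chr16:10839081-10839109, minus strand): catctgcttttCATATGCcaaacacaata
Celf2 (chr2:6998918-6998946, minus strand): atgattatgcaCATATGCatgtatgtcta
Blcap (chr2:157566593-157566621, minus strand): acaatctgctgCATATGCatgaaggggac
Arhgap24 (chr5:102629759-102629787, plus strand): gccagtggcttCATATGCactagattccc
Crlf2 (chr5:109558229-109558257, minus strand): cccacgatttaCATATGCacaagcctcaa
Fgfr2 (chr7:130577148-130577176, minus strand): cagcgtgcacaCATATGCacatacacaaa

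In 9 of the 11 stretches the word was part of CATATGCA or TGCATATG, and 2 of the 11 also held the octamer ATGCNAAT that POU-domain proteins bind, which overlaps the word. The octamer itself stood in the central 200 bp of 10 of 95 peaks in replicate 1 (10.5%, 5.16 to 18.5%) and 2 of 52 in replicate 2 (3.85%, 0.469 to 13.2%). The list of OCT4-HA with SOX2-YPET had it in 1.77% of 5146 peaks, merged peaks of the other 20 constructs in 2.14% (0.742% to 3.97% by list), and windows 5 kb further along the chromosome that touched no peak in 2 of 108 (1.85%). Of the OCT4-only sites 7 of 48 held it (14.6%, 6.07 to 27.8%). The excess over the other lists is thus seen in replicate 1, while the interval of replicate 2 includes their share.

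NANOG-HA alone had 316 sites. Homeodomain sequences, TAATGG or TAATTG, stood in 57 of its 396 peaks (14.4%, 11.1 to 18.2%), beside 14.6% of the merged peaks of the other 20 constructs (4.06% to 31.2% by list) and 18.2% of 357 such windows 5 kb from its peaks (14.3 to 22.6%). No excess of these letters was seen. The AP-1 sequence TGANTCA, bound by FOS and JUN proteins, was in 18.2% of the peaks (14.5 to 22.3%) and 6.16% of these windows (3.90 to 9.18%). The lists of other constructs ranged from 2.05% in TEAD1-HA to 36.9% in SOX2-HA replicate 1, and DLX1-HA, DLX6-HA, SOX15-HA and FOXA1-HA were among those above NANOG-HA. The leading 7-base word was AACCACA, or TGTGGTT on the other strand, the kind of sequence that RUNX proteins bind. It was held by 76 of the 316 sites (24.1%, 19.4 to 29.2%), 5.27% of promoters and 41 of 553 neighbouring windows (7.41%, 5.37 to 9.92%). The widest such sites in protein-coding genes, in introns of the tensin gene Tns4 and the syndecan gene Sdc2, are printed with the word in capitals.

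Tns4 (chr11:99076998-99077026, minus strand): agatggctgaaAACCACAaaacagcaaac
Sdc2 (chr15:33000798-33000826, minus strand): tccttggtaacAACCACAgcagaaaatct

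This word was not particular to NANOG-HA. It stood in 12 of the 48 OCT4-only sites (25%, 13.6 to 39.6%), again all of replicate 1, and in 20.8% of BRACHYURY-HA, 19.5% of SIX6-HA and 19.3% of SOX15-HA peaks. At sites where none of the 4 factors had a peak, its share was 7.56% with 1 construct, 10.6% with 2 to 4, 14.2% with 5 to 9 and 15.7% with 10 or more. It was in 5 of the 78 sites that NANOG-HA shared with another of the 4 (6.41%, 2.11 to 14.3%). Among NANOG-only sites without a near copy elsewhere in the genome, defined below, 63 of 192 held it (32.8%). For the 11 PRR3-only sites the leading word, GGACAAC, was in 4, and for the 21 sites of all 4 factors the leading word, GGGCATA, was in 5, too few to describe.

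**Figure D2:**
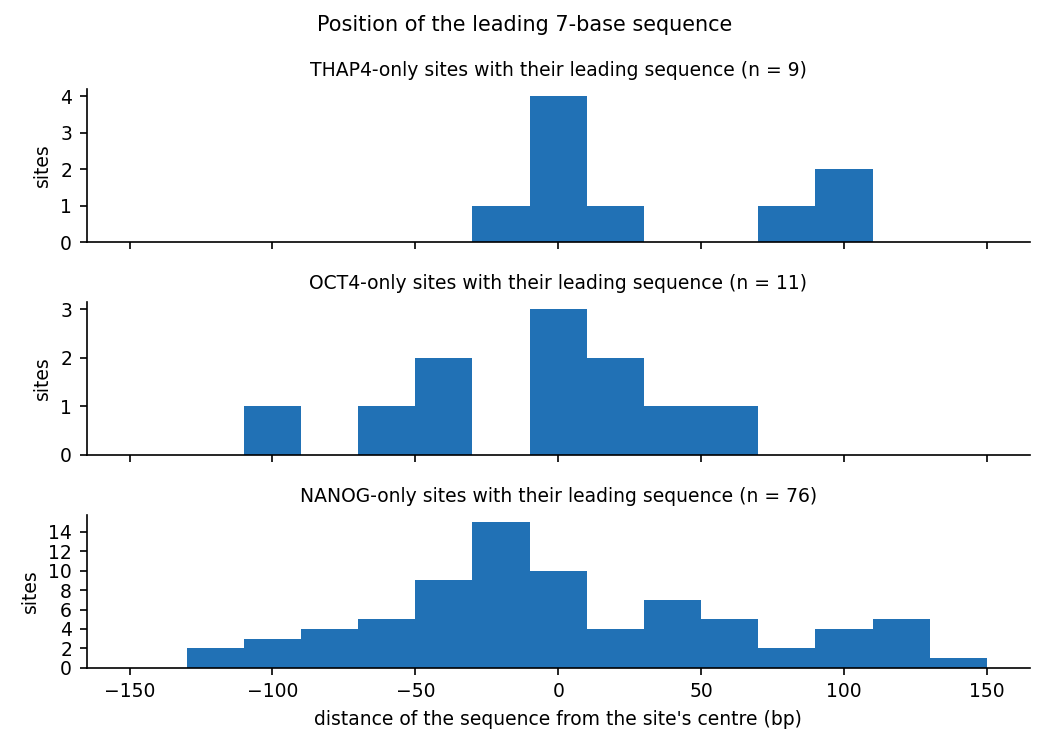
Distance in bp between the centre of a site and the nearest copy of the leading 7-base sequence (horizontal axis), as numbers of sites in bins of 20 bp (vertical axis), for THAP4-only, OCT4-only and NANOG-only sites that hold it. The median distance is 23 bp for the 9 THAP4-only sites, 30 bp for the 11 OCT4-only sites and 44.0 bp for the 76 NANOG-only sites.

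The 480 sites fell into 4 classes by which lists had a peak there. All 4 factors had a peak at 21 sites (4.38%), 2 or 3 of them at 63 (13.1%), 1 of them together with another construct at 371 (77.3%), and 1 of them with no other construct at 25 (5.21%). The shares of each list in these classes are given as a description. Sites of all 4 factors took 5.30% of the NANOG-HA peaks (3.31 to 7.99%), 18.9% and 36.5% of the OCT4-HA peaks in replicates 1 and 2, 33.9% of the PRR3-HA peaks (22.3 to 47.0%) and 37.9% of the THAP4-HA peaks (25.5 to 51.6%). By definition each of the 4 factors has a peak at each of these 21 sites. For NANOG-HA, PRR3-HA and THAP4-HA this share is therefore nearly fixed by list length, and no difference between the factors is read from it. Peaks in no list of another construct were 16 of NANOG-HA (4.04%), 3 of OCT4-HA replicate 1 (3.16%), 0 of replicate 2, 0 of PRR3-HA (upper exact limit 5.78%) and 6 of THAP4-HA (10.3%, 3.89 to 21.2%).

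**Figure D3:**
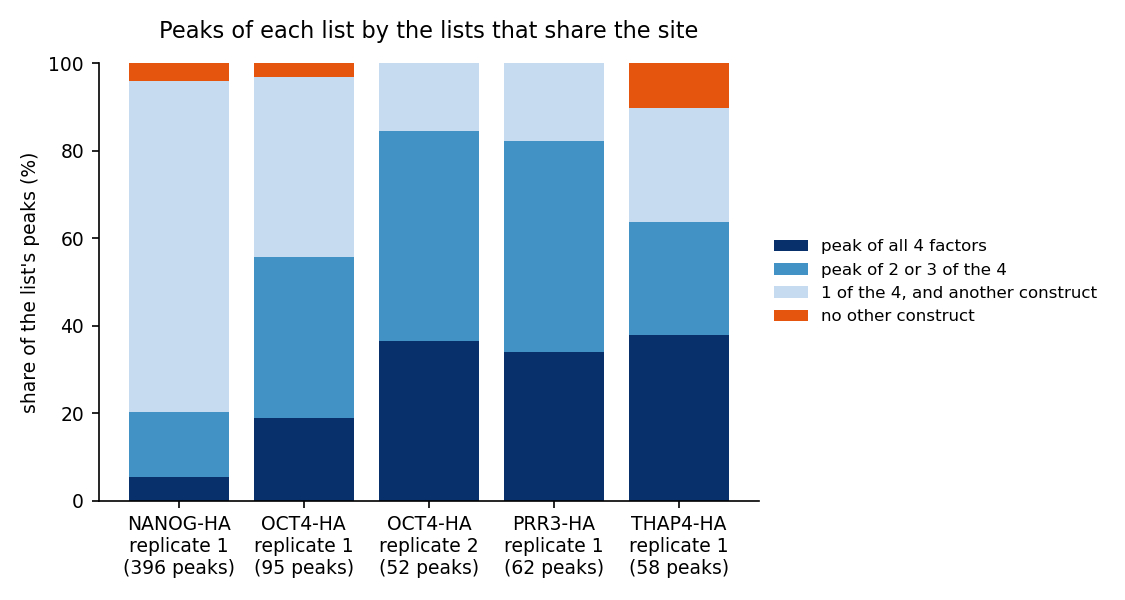
Share of the peaks of each of the 5 lists (vertical axis, percent) that lie at sites of all 4 factors, of 2 or 3 of them, of 1 of them with another construct, or in no list of another construct. NANOG-HA peaks are mostly (75.8%) of the third kind, and THAP4-HA has the largest share without another construct (10.3%).

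The sites of all 4 factors were sites of nearly every other construct. Each had peaks of 14 to 20 of the other 20 constructs, with a median of 19. BHLHB8-HA, CDX2-HA, FOXA1-HA, FOXA1_RR-HA, RHOX11-HA, SIX6-HA, SOX15-HA and SOX2-HA had a peak at all 21, whereas TEAD1-HA had one at 7. FOXA1_RR-HA, with 151 peaks in all, covered the 21 completely and FOXA1_SW-HA covered 18. OCT4-HA with SOX2-YPET covered 17.

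**Figure D4:**
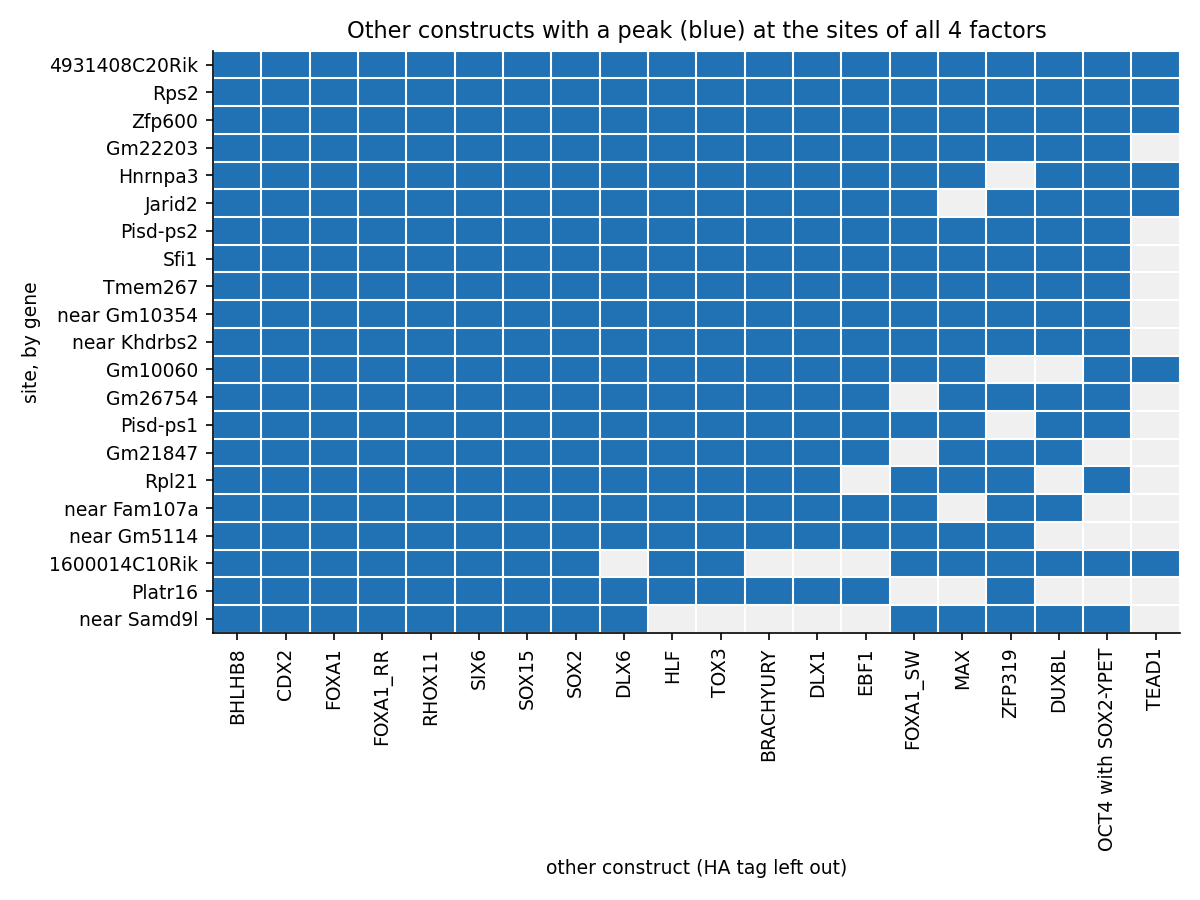
Presence (blue) or absence (grey) of a peak of each of the other 20 constructs (horizontal axis) at the 21 sites of all 4 factors (vertical axis, named by the gene at the site or the nearest protein-coding start). The rows for 4931408C20Rik, Rps2 and Zfp600 are complete, and TEAD1-HA, on the right, has a peak at 7 of the 21.

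Genes of translation and RNA binding were among them. The site at Rps2, which encodes a protein of the small ribosomal subunit, and its intronic snoRNA gene Snora64 spanned 1379 bp (chr17:24720436-24721814), 86.1% of it exon. The site at Rpl21, of the large subunit, spanned 1043 bp (chr5:146834848-146835890), 79.4% of it exon, and took in the snoRNA genes Gm23202 and Gm25091. Both lay over gene bodies, not only over the start. The widest of all, 1864 bp (chr2:75661613-75663476), covered the start and coding sequence of Hnrnpa3, an RNA-binding protein gene. Other named sites were the start of 4931408C20Rik (1350 bp) and of 1600014C10Rik (718 bp), and the snRNA gene Gm22203 (662 bp). A coding exon of Sfi1 (527 bp), a centrosome gene, was also among them.

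Further sites of all 4 factors lay in introns of Jarid2, which encodes a partner of the Polycomb complex PRC2, of the zinc-finger gene Zfp600 and of Tmem267. Pisd-ps1, Pisd-ps2 and Gm10060 are pseudogenes, and Platr16, Gm21847 and Gm26754 are noncoding RNA genes. The last 5 lay in no annotated gene, with the nearest protein-coding starts at Khdrbs2, Samd9l, Gm5114, Gm10354 and Fam107a.

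At the 24 sites of 3 factors the coding exons touched included those of Gapdh of glycolysis (1088 bp, all exon), Rpl7a (1493 bp) and Hmgb1, a chromatin protein gene (1666 bp). Thap1, a relative of Thap4, carried a site of 1763 bp with NANOG-HA, OCT4-HA and PRR3-HA peaks and no THAP4-HA peak. Of the other constructs, all but DLX6-HA, DUXBL-HA, FOXA1_RR-HA, MAX-HA and ZFP319-HA had a peak at Thap1 as well. Sites overlapping a coding exon were 19 of the 84 with 2 or more factors, with a median width of 665 bp, and 18 of the 396 with 1 factor, with a median width of 352 bp.

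A gene was said to have a peak when the peak touched its body or lay within 1000 bp of a start. By this rule 0.515% of the 21938 protein-coding genes had a NANOG-HA peak, 0.205% an OCT4-HA peak, 0.0912% a PRR3-HA peak and 0.109% a THAP4-HA peak. Of 91 ribosomal protein genes, NANOG-HA had peaks at 5 (5.49%, 1.81 to 12.4%), OCT4-HA at 4 (4.40%), PRR3-HA at 5 (5.49%) and THAP4-HA at 4 (4.40%). Rps2 and Rpl21 were shared by all 4, Rpl7a was missing from THAP4-HA, and Rpsa was a site of NANOG-HA and OCT4-HA. Rpl10 with Snora70 was a site of PRR3-HA (531 bp) and Rpl17 one of THAP4-HA. FOXA1_RR-HA had peaks at 6 of the same 91 genes and FOXA1_SW-HA at 7, so this share is not particular to the 4 factors.

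Of 29 genes tied to pluripotency, among them Sox2, Klf4, Esrrb and Fgf4, NANOG-HA had a peak at 1, Nanog (3.45%, 0.0873 to 17.8%, beside 0.515% of all protein-coding genes). OCT4-HA had 0 (upper exact limit 11.9%, beside 0.205%), which the small list cannot tell from that share. That peak spanned 1535 bp over coding exons of Nanog (chr6:122711763-122713297), 18.5% of it exon, and was in no other list. Neither OCT4-HA list had a peak at Pou5f1, whereas OCT4-HA with SOX2-YPET had one of 1090 bp there. Of the 29 genes that list had peaks at 2, Pou5f1 and Sox2, which encode the factors expressed in that line. Each transgene held the coding sequence of its factor. Reads from a transgene were not told apart from reads of the gene itself, so binding at Nanog, Pou5f1 or Sox2 is not read from these peaks. PRR3-HA had none at Prr3. Histone genes (0 of 67, upper exact limit 5.36%) and immediate early genes (0 of 10, upper exact limit 30.8%) had no peak of any of the 4, and these limits lie far above the shares of all protein-coding genes, so nothing is read from the absence. Of 19 genes of transcripts known to be abundant in fibroblasts, NANOG-HA, OCT4-HA and PRR3-HA each had a peak at 1, Gapdh (5.26%, 0.133 to 26%). The shares of all protein-coding genes were 0.515%, 0.205% and 0.0912%. THAP4-HA had 0 (upper exact limit 17.6%, beside 0.109%). FOXA1_RR-HA and FOXA1_SW-HA also had a peak at Gapdh alone of the 19, so this count is not particular to the 4 factors. Genes of small RNAs had a peak in 0.165% to 0.281% of 6060 cases, on either side of the shares of protein-coding genes. Zinc-finger genes named Zfp had NANOG-HA peaks in 6 of 394 cases (1.52%, 0.561 to 3.28%, beside 0.515% of all protein-coding genes). The genes were Zfp719, Zfp804b, and Zfp600, Zfp980, Zfp982 and Zfp984. The last named are neighbours in 1 stretch of chromosome 4 described below, so the cases are not independent and the interval is too narrow. THAP4-HA had peaks at 3 of the Zfp genes, Zfp37, Zfp600 and Zfp672 (0.761%, 0.157 to 2.21%, beside 0.109%). OCT4-HA and PRR3-HA each had a peak at 1, Zfp600 (0.254%, 0.00643 to 1.41%, beside 0.205% and 0.0912%).

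**Figure D5:**
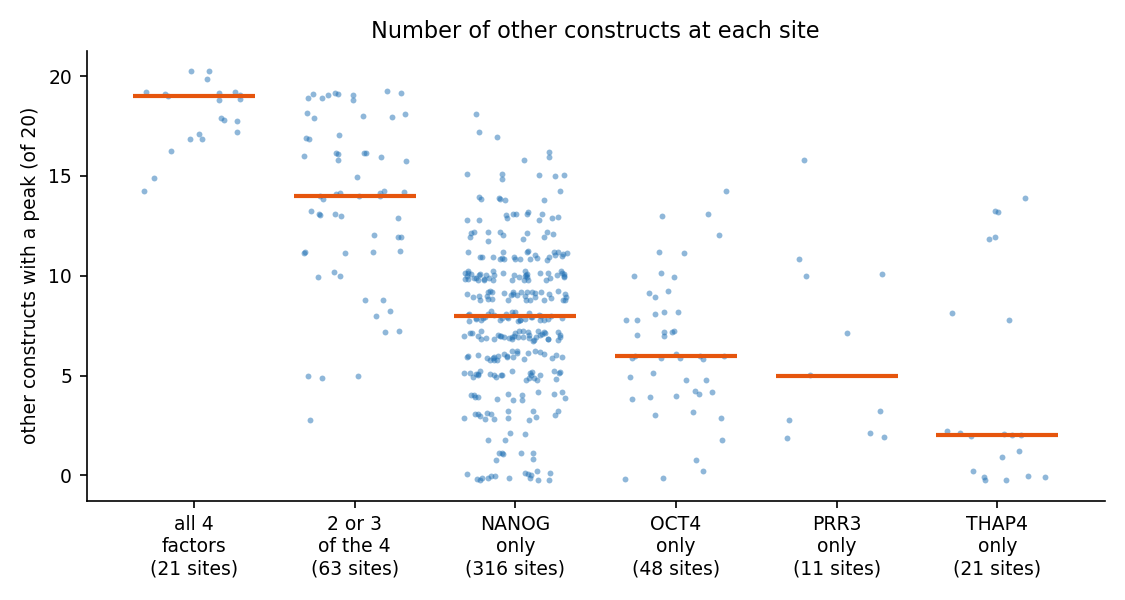
Number of the other 20 constructs with a peak at each site (vertical axis), for sites of all 4 factors, of 2 or 3 of them and of each factor alone (horizontal axis). Each point is 1 site, spread slightly to be seen, and orange lines are medians, which fall from 19 for all 4 factors to 2 for THAP4 alone.

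Sites of one factor alone among the 4 were mostly sites of other constructs too. The median number of other constructs was 8.0 for the 316 NANOG-only sites, 6.0 for the 48 OCT4-only, 5 for the 11 PRR3-only and 2 for the 21 THAP4-only sites. NANOG-only sites were met most by BHLHB8-HA (83.9%), SOX2-HA (76.9%) and DLX6-HA (71.2%), and little by the shorter FOXA1_RR-HA (6.01%). The least overlap was that of TEAD1-HA (2.53%), although its list has 14959 peaks. OCT4-only sites were met by OCT4-HA with SOX2-YPET in 8 of 48 cases (16.7%) and by BHLHB8-HA in 39 (81.2%). These constructs have up to 61991 peaks in a list, and chance overlap was not subtracted. Of the 9 THAP4-only promoters, 7 also had a BHLHB8-HA peak, 2 each a DLX1-HA and a RHOX11-HA peak, and 1 a TEAD1-HA peak.

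The 5 widest NANOG-only sites were Nanog itself, 3 sites in no gene, near Gm17019, Zfp982 and Ighv6-5, and coding exons of Hmgb2, a chromatin protein gene (696 bp). For OCT4-HA they were at Hmgn2, a nucleosome-binding protein gene (877 bp, 56.4% exon), at Hnrnpa1, an RNA-binding protein gene (517 bp), in an intron of the receptor gene Crlf2 (517 bp) and in no gene near Vmn1r77 and Olfr161. For PRR3-HA they were at Rpl10, in the Sfi1 intron at the pseudogene Gm11400 (401 bp, all exon), and in no gene near Snai2, Zfp386 and Gm31371. For THAP4-HA they were at Rpl17 (897 bp), Zfp672 (425 bp), Thap4 (411 bp), Knstrn (378 bp) and in no gene near Vmn1r77 (409 bp).

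Only 25 sites were in no list of another construct, and most were narrow, with a median width of 212 bp. The 16 of NANOG-HA were the Nanog site and 15 of 168 to 222 bp, and the other genes at the 10 widest were Ankib1 and Zfp804b, both touched in introns. Both genes lie in a stretch of chromosome 5 at 3.76 to 7.81 Mb, described below, which held 5 of the 25 sites and many peaks of other constructs. The 3 of OCT4-HA all came from replicate 1: the start of Rnf169, a gene of the DNA damage response (279 bp), and 2 sites in no gene, nearest to Dars and Taf1b. The 6 of THAP4-HA were the promoters of Zfp672 and Irgq, introns of the noncoding RNA genes 4932435O22Rik and Gm41414, and 2 sites in no gene, nearest to Inhbb and Cntnap5a. PRR3-HA had none.

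The OCT4-HA duplicates show how far single peaks of such short lists recur. Of 117 OCT4-HA sites, 28 (23.9%) had a peak in both lists, 67 in replicate 1 only and 22 in replicate 2 only. Recurrence went with breadth: 14 of 21 sites of all 4 factors (66.7%) were in both lists, 12 of 48 sites shared with 1 or 2 of the others (25%), 2 of 45 sites of OCT4-HA and other constructs (4.44%) and 0 of 3 in no other construct. OCT4-HA with SOX2-YPET met 81.0%, 68.8%, 17.8% and 0 of the same classes. For NANOG-HA, PRR3-HA and THAP4-HA no such check exists, and sites of one factor are a description of 1 library.

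Repeated sequence marked many of the sites. A near copy was defined as a match of at least 90% identity over at least 80% of the central 300 bases elsewhere in GRCm38.p6. The search took in all sequences of that reference, not only the main chromosomes. A match outside the main chromosomes counted as a copy even if it was another version of the same locus. Such matches were not told apart, so the shares below may be too high. At least 1 was found for 14 of the 21 sites of all 4 factors (66.7%, 43.0 to 85.4%), 48 of 63 with 2 or 3 (76.2%, 63.8 to 86.0%), 143 of 371 with 1 and another construct (38.5%, 33.6 to 43.7%) and 4 of 25 in no other list (16.0%, 4.54 to 36.1%). In every 200th merged peak of the other wild-type factors and the co-expression list it was 108 of 1373 (7.87%, 6.50 to 9.42%), and in FOXA1_RR-HA and FOXA1_SW-HA 52.3% and 60.5%. By factor, near copies were found for 81.8% of PRR3-only, 39.2% of NANOG-only, 28.6% of THAP4-only and 16.7% of OCT4-only sites. Reads were kept only where they aligned to 1 place, and the part of near copies in these peaks was not tested.

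The sites were also bunched along chromosomes. Of the 480, 176 (36.7%) lay in 10 stretches of at least 5 sites with gaps of at most 500000 bp. Those with the most sites were 37 sites at 19.71 to 21 Mb of chromosome 8, 33 at 14.9 to 15.7 Mb of chromosome 5, 28 at 145.41 to 147.8 Mb of chromosome 4, around Zfp600, Zfp980, Zfp982 and Zfp984, 20 at 115.06 to 116.01 Mb of chromosome 12, at immunoglobulin heavy-chain V genes, and 18 at 3.12 to 3.18 Mb of chromosome 11, at Sfi1 and Pisd-ps1. In the same order, 35, 33, 28, 17 and 17 of these sites had a near copy. A further stretch of 17 sites, 14 of them of NANOG-HA, at 3.76 to 7.81 Mb of chromosome 5 over Ankib1, Akap9, Cdk14 and Zfp804b, had none. It covers 0.149% of the genome and held 3.54% of the NANOG-HA peaks, and 0.274% to 7.99% (median 0.716%) of the peaks in the 23 lists of other constructs, the highest share being that of OCT4-HA with SOX2-YPET. The stretch of 37 sites held 3.16% to 9.68% of the 5 lists, 6.62% of FOXA1_RR-HA and 11.6% of FOXA1_SW-HA (median of the 23 other lists 0.332%). That of 33 sites held 5.26% to 12.1%, 7.28% and 6.80% (median 0.387%). Bunching there was thus not particular to the 4 factors.

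The 4 factors were set beside the other 20 constructs on 4 measures of their lists. An exact two-sided permutation test over constructs was used, with Benjamini-Hochberg adjustment. The factors were chosen for short lists and share sites, and 5 of the 21 sites of all 4 touched a coding exon. Their values are thus not independent, and the test cannot tell a difference in kind from one of list length. Peaks on coding exons were 6.82% of NANOG-HA, 18.9% and 19.2% of OCT4-HA, 24.2% of PRR3-HA and 19% of THAP4-HA. NANOG-HA was the lowest of these. Among the other constructs the highest were TEAD1-HA at 28.8%, FOXA1_SW-HA at 19% and RHOX11-HA at 16.9%. The mean was 17.3% ± 7.38 (SD, n = 4) against 7.68% ± 7.12 (n = 20), a difference that did not pass the threshold after adjustment (exact permutation p = 0.0410, adjusted p = 0.164). With peaks of at least 300 bp the difference was 17.9 percentage points and passed (exact permutation, adjusted p = 0.0331). The promoter share was 10.8% ± 7.17 against 13.3% ± 13.5 (exact permutation, adjusted p = 0.956), with THAP4-HA highest of the 4 at 20.7% and NANOG-HA lowest at 3.54%. The median GC content of the central 200 bp was 47.8% ± 1.46 against 48.3% ± 6.22, and the median width 298 bp ± 56.2 against 285 bp ± 33.6 (exact permutation, adjusted p = 0.956 for both). Among other sequences counted, the YY1-type AAGATGG stood in 8 of 58 THAP4-HA peaks (13.8%, 6.15 to 25.4%), beside 3.90% of the merged peaks of the other constructs (2.49% to 7.48% by list), and in 5 of the 21 THAP4-only sites.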

How the data were processed

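The authors aligned 37-nt paired-end reads to mm10 with STAR 2.5.3a, kept unique alignments, removed duplicates with Picard, and called peaks per sample with MACS2 2.1.1.20160309. They discarded peaks that overlapped peaks of NIH-3T3 input or blacklisted regions. The deposited files give chromosome, start and end only, per the file contents, so no depth and no test on reads was possible. The input sample was not used here.

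All peaks lay within GRCm38 chromosome lengths. GENCODE vM21 annotation and RefSeq promoter sequences were used, and coordinates count from 1. Groups came from the labels. Peaks sharing at least 1 bp were merged into sites, and the OCT4-HA duplicate did not count as another construct, while OCT4-HA with SOX2-YPET did. Intervals are 95% exact (Clopper-Pearson) and cover counting error over peaks only. Near copies were found with BLAST 2.17.0 (word size 28). Leading words were ranked, among the 60 most common 7-base words of a set, by their share over that in promoters plus 0.002. Permutation tests ran over all 10626 ways to pick 4 of 24 constructs, with duplicates averaged. The genes named are those at sites of all 4 factors, at the 5 widest sites of each factor alone, at sites in no other construct (10 widest at most), own genes and list genes. The values of 1 such gene are not reported here. The 3-factor sites, promoters and word sites were named after their values were seen. Members, gene lists and tests were chosen with earlier results of these data known. Overlap, permutation and word counts were tested on simulated data. Python 3.11.15, NumPy 2.4.6, SciPy 1.17.1 and Matplotlib 3.10.9 were used.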

Additional observations from a re-analysis of the deposited data

How the results depend on the processing

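Sites of all 4 factors numbered 21, and 13 with peaks of at least 300 bp. Sites of one factor only numbered 396, and 92 with such peaks. Sites in no list of another construct numbered 25, 4 with such peaks, 52 with a reciprocal overlap of 50%, and 11 when peaks up to 1000 bp apart were joined. An alternative chosen after seeing the data, which kept only sites without a near copy, left 7, 249 and 21 of these. Leaving out either OCT4-HA list gave 17 to 18 sites of all 4 factors, 372 to 397 of one factor and 22 to 25 in no other list. The octamer share of merged OCT4-HA peaks was 9.24%, and ran from 3.85% without replicate 1 to 10.5% without replicate 2, and it was 13.2% with peaks of at least 300 bp (7 of 53) and 10.1% over whole peaks. The difference in coding exon share, 9.59 percentage points, passed the threshold only with peaks of at least 300 bp (17.9 percentage points, exact permutation, adjusted p = 0.0331; 0.124 to 0.165 under the others). The difference in median width, 13.4 bp, was 49.5 bp there and did not pass (exact permutation, adjusted p = 0.0535). The cause of these changes was not tested. No test changed direction under any alternative run. No paired analysis was possible because OCT4-HA alone of the 4 factors has more than 1 list, so the groups share fewer than 2 replicate numbers. Depth is unknown, and a site missing from a list may have been below the caller's limit there.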

Other observations

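Some counts stand outside the comparisons. Of the 14 THAP4-only sites with at most 2 other constructs, 9 held CCGTACA, and among 15 THAP4-only sites without a near copy 7 did (46.7%, 21.3 to 73.4%). Of the 27025 genes with a promoter sequence, 216 held the word in at least 1 and 15 had a THAP4-HA peak on at least 1. The word also occurred in 4 of 470 sites of 10 or more other constructs without a peak of the 4 factors (0.851%, 0.232 to 2.16%), beside 0.434% of 128655 such sites with 1 construct. CCAAT stood in 21 of 58 THAP4-HA peaks (36.2%, 24.0 to 49.9%) and in 26.7% of the merged peaks of the other constructs (9.53% to 52.9% by list, highest in DUXBL-HA).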
